A study of Bos taurus with 33 samples.

Results

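The comparison was of cumulus cells (CC) from small follicles with an induced gonadotropin surge against CC from follicles with a spontaneous surge, in 11 of the 33 pools of the series: 6 small and 5 spontaneous. Each pool held the CC of 4 cumulus-oocyte complexes of postpartum beef cows (Bos taurus). All cows received GnRH on day -9 and prostaglandin F2 alpha on day -2. Cows of the small classification showed no estrus, had a largest follicle of at most 11.7 mm on day 0 and were given a second GnRH injection on that day. Cows of the spontaneous classification showed estrus, had a follicle of 11.7 to 14.0 mm and received no second GnRH, so that their surge was their own. Follicle diameter, estrus and the origin of the surge therefore changed together and cannot be told apart in this contrast. CC of large follicles, from 12.7 mm and with the same induced surge as the small ones, are given beside some values as a description (n = 6), and any comparison with them shares the small or spontaneous pools. Complexes were aspirated about 23 h after GnRH or estrus according to the protocol, whereas the stage label gives about 20 h.

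CC are granulosa-derived somatic cells that enclose the oocyte and reach it through gap junctions. They take up glucose and pass pyruvate and lactate to the oocyte, supply it with cholesterol and amino acids, and after the gonadotropin surge secrete a hyaluronan matrix that expands the complex. Luteinizing hormone acts on the follicle wall first, and EGF-like ligands carry its signal to the CC.

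Values are CPM, the reads on a gene scaled to the same total in every pool. Transcripts that reached 5 CPM in 5 or more of the 17 CC pools, 9712 in number, were tested with limma on log2(CPM + 1). A log2 fold change is spontaneous minus small on that scale, which understates the change of low transcripts, and a transcript is called at a nominal p of 0.01 or less. The labels do not say whether pools came from separate animals, so p-values measure the spread between these pools. Small pools held 1911600 to 5772431 reads on genes and spontaneous pools 4535826 to 5510272 (exact permutation test, p = 0.0606). At these depths a count of 0 allows up to 0.520 to 1.57 CPM in small and 0.544 to 0.661 CPM in spontaneous pools (3 reads, counting error alone). In bulk pools, fewer cells of a type and less RNA per cell cannot be told apart.

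The share of reads on the 13 mitochondrially encoded protein genes was 20.2, 31.6, 44.0, 21.3, 25.7 and 12.6% in small replicates 1 to 6, and 19.0, 22.1, 14.3, 14.3 and 15.6% in spontaneous replicates 1 to 5. Small replicate 3 was the highest and small replicate 6 the lowest, and the groups overlapped (25.9 ± 10.9% against 17.1 ± 3.40%, SD, exact permutation test, p = 0.104, adjusted p = 0.277 over 8 measures). Because CPM sum to the same total in every pool, a larger mitochondrial share lowers the CPM of all other transcripts. Over all 9712 transcripts the median log2 fold change was 0.16 on CPM, with 71.9% higher in spontaneous pools, and 0.01 after median-of-ratios scaling, which sets the typical transcript equal between pools, with 51.7% higher. In what follows, values and overlaps between groups are on CPM unless rescaling is named, and it is said of each called list member whether its call held after rescaling.

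On CPM, 221 transcripts were called higher in spontaneous pools (2.28% of those tested) and 10 lower (0.103%). After median-of-ratios scaling 78 were called higher (0.803%) and 48 lower (0.494%). The 78 were all among the 221, and the 10 were all among the 48, so 78 (0.803%) and 10 (0.103%) held with both scalings and the other 38 lower calls appeared only after rescaling. Adjusted for 9712 tests (Benjamini-Hochberg), 3 transcripts passed 0.05 on CPM, all higher in spontaneous pools (0.0309% of those tested), and 1 passed after rescaling, with limma in both cases. The 2 groups of pools did not overlap at all for 107 transcripts that were higher in spontaneous pools (1.1%) and for 6 that were lower (0.0618%), against 27 and 28 after rescaling. Of the 221, 8 reached 5 CPM in no small pool and so passed the filter only through the other pools. With each of the 11 pools left out in turn, 69 of the 221 and 3 of the 10 were called every time, 54 of the 69 also after rescaling. The shares called higher, 2.28% on CPM and 0.803% after rescaling, are the background for the counts of each list below. The lists were chosen with earlier results of these data known, so their shares are a description and not a test.

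**Figure D1:**
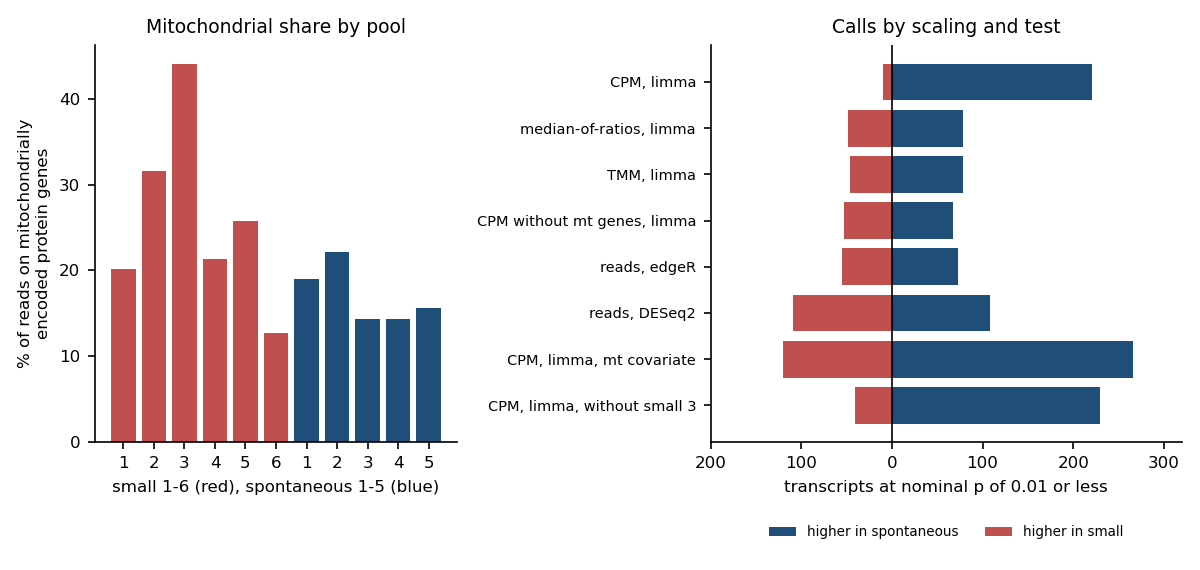
Left, percent of reads on mitochondrially encoded protein genes in each pool (bars, small in red and spontaneous in blue). Right, number of transcripts called at a nominal p of 0.01 or less, higher in spontaneous pools to the right of 0 and higher in small pools to the left, by scaling and test (mt, mitochondrially encoded). On CPM 221 calls stood to the right and 10 to the left, against 78 and 48 with median-of-ratios scaling.

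The 3 transcripts past the adjusted threshold were GIMAP8, SRGN and FMOD. GIMAP8 encodes a member of the GIMAP family of GTP-binding proteins, known mainly from lymphocytes. In small pools it lay at 1.52 to 3.14 CPM (median 2.77, n = 6), from 5 to 16 reads a pool. In the 5 spontaneous pools it lay at 47.2, 17.4, 18.7, 18.5 and 13.01 CPM, from 59 to 226 reads. Each spontaneous pool was above each small pool, with spontaneous replicate 1 the highest. The log2 fold change was 2.60 ± 0.34 (SE, limma adjusted p = 0.00562; exact permutation test, p = 0.00433, the smallest that 6 against 5 pools allow), and 2.46 after rescaling, the single transcript that then passed (limma adjusted p = 0.0223). CC of large follicles, whose surge was induced as well, held 7.47 to 44.3 CPM. No small pool reached 5 CPM, so GIMAP8 passed the filter through the other pools, and the other 4 GIMAP genes in the table, at most 2.30 CPM in each of the 11 pools, were not tested. None of 13 white blood cell markers tested was called with limma (0 with an unadjusted p under 0.05), edgeR or DESeq2, whereas 4 were called higher with the mitochondrial share as a covariate (C1QA, CD53, CSF1R and LAPTM5, of phagocytes and other leukocytes, the names taken after their calls were seen). PTPRC, the common leukocyte antigen, lay at 2.45 to 19.4 CPM in small and 6.83 to 10.5 CPM in spontaneous pools (0.11 ± 0.39, SE). The summed CPM of the white blood cell list was 62.3 to 235.9 in small and 83.3 to 380.2 in spontaneous pools (exact permutation test, p = 0.416), and its part in the GIMAP8 result was not tested.

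SRGN encodes serglycin, the proteoglycan core of secretory granules. Small pools held 208 to 626 CPM (median 489, n = 6) and spontaneous pools 1908, 1044, 1209, 3928 and 2041 CPM. The groups did not overlap, and spontaneous replicate 4 was the highest. The log2 fold change was 2.15 ± 0.33 (SE, limma adjusted p = 0.022), 1.99 after rescaling. Large pools covered 342 to 1830 CPM, a range that reached into both groups. FMOD encodes fibromodulin, a small leucine-rich proteoglycan that binds collagen fibrils. It lay at 4.86 to 19.4 CPM (median 8.64, n = 6) in small pools and at 52.4, 54.0, 36.3, 26.7 and 30.6 CPM in spontaneous pools. Again no small pool reached a spontaneous pool. The log2 fold change was 1.95 ± 0.32 (SE, limma adjusted p = 0.0333), 1.80 after rescaling. None of these 3 lost its nominal call with any 1 pool left out.

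**Figure D2:**
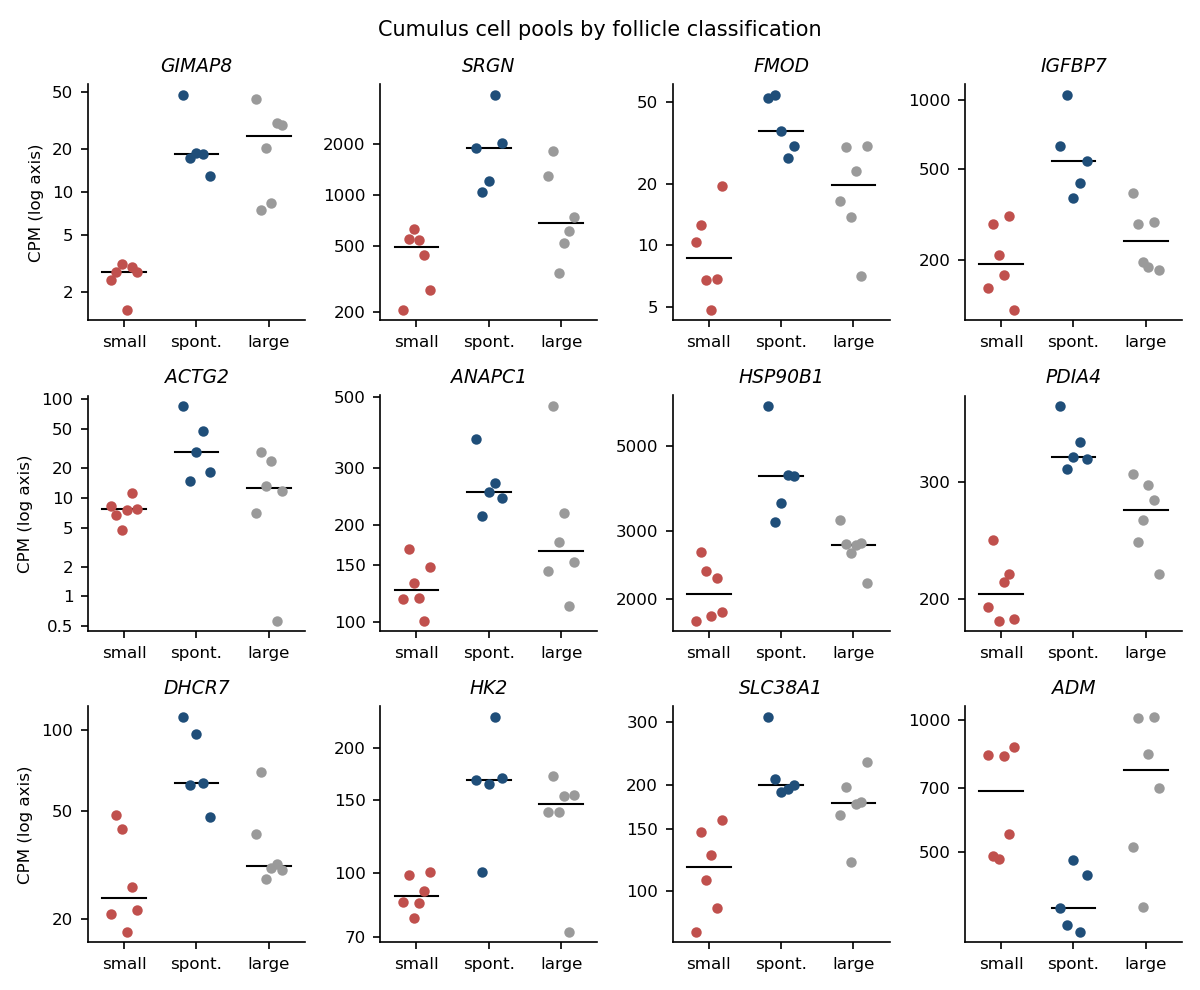
CPM of 12 named transcripts in each CC pool on log axes (points), for small (red), spontaneous (blue) and large follicles (grey), with the median of each group as a line. In every panel but ADM the median of the spontaneous pools lies above that of the small pools, and for DHCR7 the ranges overlap.

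Past these 3, the named transcripts with the smallest p were higher in spontaneous pools under both scalings, and they spread over many functions. IGFBP7, a secreted protein that binds insulin-like growth factors, lay at 122 to 311 CPM (median 193, n = 6) in small and at 632, 1047, 375, 436 and 541 CPM in spontaneous pools without overlap (log2 fold change 1.51 ± 0.27, SE, limma adjusted p = 0.0614). Spontaneous replicate 2 was the highest, and the large pools lay at 181 to 394 CPM. ACTG2, the gamma actin of smooth muscle, lay at 4.71 to 11.1 CPM (median 7.69, n = 6) in small and 85.0, 14.8, 29.0, 47.9 and 18.3 CPM in spontaneous pools (log2 fold change 1.95 ± 0.38, SE, limma adjusted p = 0.111). It did not overlap between the groups, but its spontaneous values spanned several-fold. ANAPC1, a scaffold subunit of the anaphase-promoting complex, lay at 101 to 168 CPM (median 125, n = 6) in small and 369.8, 214, 253, 269 and 243 CPM in spontaneous pools (log2 fold change 1.03 ± 0.18, SE, limma adjusted p = 0.0569). ADGRV1, a large adhesion receptor coupled to G proteins, lay at 28.2 to 106 CPM (median 50.2, n = 6) in small and 150.03, 86.0, 146, 158 and 170.2 CPM in spontaneous pools, where replicate 2 was inside the range of the small pools (1.46 ± 0.29, SE, limma adjusted p = 0.13). These 4 kept their calls with each pool left out.

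Transcripts of cholesterol handling held the most calls of the pathways examined. Of 36 genes listed for cholesterol synthesis, uptake and storage that the table holds, 34 were tested, all 34 were higher in spontaneous pools and 13 were called (38.2% against the 2.28% of all transcripts). Their median log2 fold change was 0.62 on CPM, against 0.16 over all transcripts. After rescaling 32 of the 34 were higher, the median was 0.47 against 0.01, and 4 were called (11.8% against 0.803%). This rescaled count was 14 without small replicate 3, when 151 of all 9712 transcripts were called higher, and 4 without spontaneous replicate 2. With edgeR 3 were called, with DESeq2 5, and with the mitochondrial share as a covariate 14.

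Among the enzymes of synthesis, DHCR7 catalyses the last reduction to cholesterol. It lay at 17.9 to 48.3 CPM (median 23.9, n = 6) in small and at 112, 62.8, 96.6, 63.7 and 47.6 CPM in spontaneous pools, where replicate 5 was just below the highest small pool (log2 fold change 1.37 ± 0.28, SE, limma adjusted p = 0.13). ACAT2, the thiolase that joins acetyl-CoA units at the start of the pathway, lay at 37.7 to 111 CPM (median 68.6, n = 6) in small and 171, 114, 126, 138 and 139 CPM in spontaneous pools without overlap (log2 fold change 1.03 ± 0.22, SE, limma adjusted p = 0.168). Both were also called after rescaling, at 1.21 and 0.87. DHCR7 was called with edgeR and with DESeq2 as well, and ACAT2 with DESeq2 but not with edgeR. FDPS, the farnesyl diphosphate synthase, did not overlap between groups either (64.7 to 107 against 114 to 156 CPM, log2 fold change 0.62 ± 0.18, SE, limma adjusted p = 0.35), but was not called after rescaling (0.46). The same held for another 4 enzymes called on CPM alone. They were HMGCS1 (0.95 ± 0.32, SE), SQLE (0.96 ± 0.29), FDFT1 (0.59 ± 0.20) and NSDHL (0.58 ± 0.20), which act at early, squalene and late steps. HMGCS1 and NSDHL each lost the call in 7, FDFT1 in 9 and SQLE in 2 of 11 leave-outs, whereas DHCR7, ACAT2 and FDPS kept theirs in each.

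Genes of uptake, storage and export were higher on CPM as well, with calls that held after rescaling for SOAT1 and APOA1 but not for SCARB1, NPC1, ABCA1 and INSIG1. SOAT1, which esterifies cholesterol for storage in droplets, lay at 88.4 to 234 CPM (median 151, n = 6) in small and 235, 199.7, 269, 290.2 and 263 CPM in spontaneous pools, with 1 small pool inside the spontaneous range (log2 fold change 0.77 ± 0.21, SE, limma adjusted p = 0.308; 0.61 after rescaling, also called). SCARB1, the receptor for high-density lipoprotein, lay at 165 to 743 CPM in small and 558 to 1002 CPM in spontaneous pools (1.02 ± 0.31, SE, limma adjusted p = 0.363). APOA1, the main apolipoprotein of that particle, was called under both scalings (1.75 ± 0.51, SE, and 1.60) but ranged from 15.9 to 153 CPM in spontaneous pools. NPC1, which lets cholesterol out of the lysosome, rose by 0.60 (SE 0.20), ABCA1, which exports it, by 1.23 (SE 0.42) and INSIG1, the sterol sensor that holds back synthesis, by 0.97 (SE 0.29), all on CPM. NPC1 lost its call in 7, ABCA1 in 8, SCARB1 in 2, APOA1 in 2 and INSIG1 in 1 of 11 leave-outs. The count of 13 rested on several pools: it was 16 without small replicate 3, 8 without spontaneous replicate 2, and 6 without spontaneous replicate 1 or without spontaneous replicate 4.

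Glucose uptake and glycolysis were examined next. Of 27 members tested, 26 were higher in spontaneous pools under both scalings, against 71.9% and 51.7% of all transcripts. On CPM 7 were called (25.9% against 2.28%) and after rescaling 3 (11.1% against 0.803%). The median log2 fold change of the list was 0.58 on CPM against 0.16, and 0.42 after rescaling against 0.01. HK2, the hexokinase that traps glucose in the cell, lay at 77.9 to 100.3 CPM (median 87.9, n = 6) in small pools and at 168, 101, 164, 238 and 169.8 CPM in spontaneous pools. The groups did not overlap, though spontaneous replicate 2 was nearly level with the highest small pool (log2 fold change 0.85 ± 0.19, SE, limma adjusted p = 0.191). HK2 was also called after rescaling (0.70). SLC2A1, the basal glucose transporter, lay at 88.9 to 123 CPM (median 117, n = 6) in small and 276, 143, 197, 169 and 179 CPM in spontaneous pools without overlap (0.74 ± 0.18, SE, limma adjusted p = 0.262), with large pools at 149.96 to 405 CPM. GPD2, the mitochondrial glycerol phosphate dehydrogenase that reoxidizes cytosolic NADH, was the third call to hold under both scalings (0.84 ± 0.21, SE, and 0.69).

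The 4 calls on CPM alone were the transporter SLC2A3 (1.10 ± 0.36, SE), the lactate dehydrogenase subunit LDHA (0.75 ± 0.23), the aldolase ALDOC (0.63 ± 0.20) and the triosephosphate isomerase TPI1 (0.59 ± 0.20). LDHA lay at 504.1 to 1238 CPM in small and 1081 to 1712 CPM in spontaneous pools. The count of 7 was 3 without small replicate 4, spontaneous replicate 4 or spontaneous replicate 5, 4 without small replicate 5, and 11 without small replicate 1. HK2, SLC2A1 and GPD2 kept their calls with each pool left out. TPI1 lost its call in 7, SLC2A3 and ALDOC each in 6 and LDHA in 5 of 11 leave-outs.

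**Figure D3:**
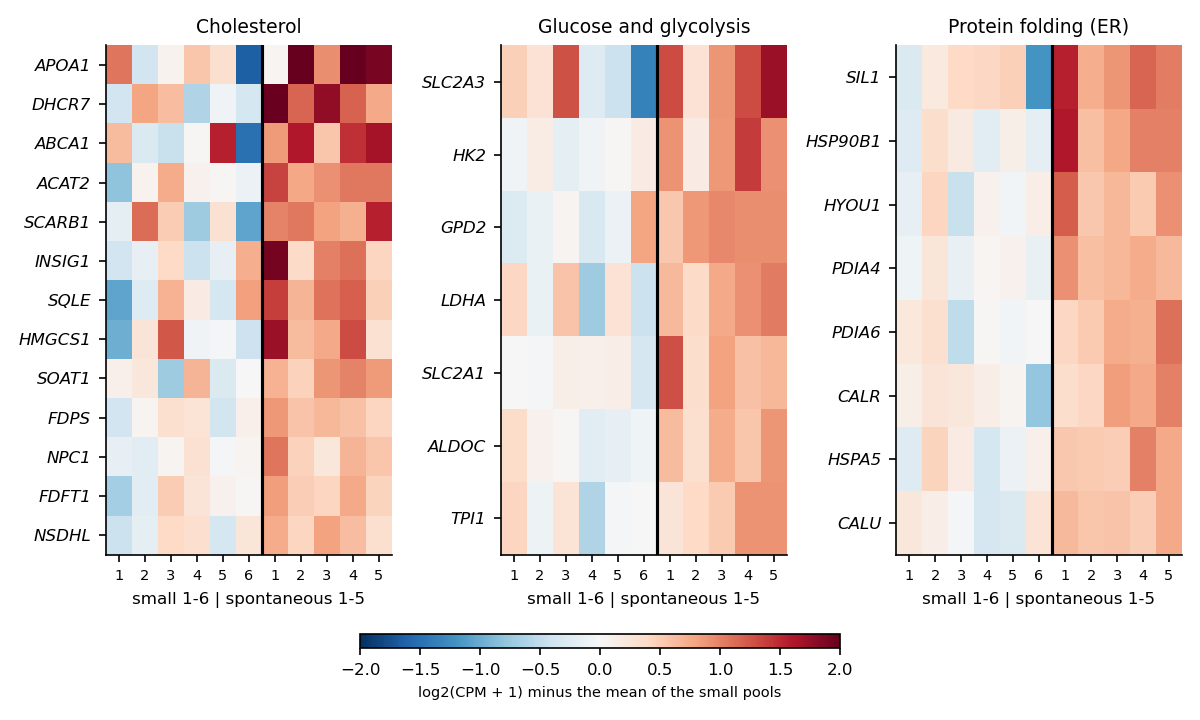
Members called on CPM of the lists for cholesterol, glucose and glycolysis, and protein folding in the endoplasmic reticulum (ER), by pool. Colour is log2(CPM + 1) minus the mean of the 6 small pools, cut at -2 and 2, and the vertical line parts small from spontaneous pools. Spontaneous pools are red for each gene, palest for APOA1 in replicate 1, while small pools spread on both sides of white, with small replicate 6 the bluest for SLC2A3, SIL1 and APOA1.

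Protein folding in the ER, where secreted and membrane proteins mature, had the highest number of members without overlap on CPM among the lists. All 35 genes of this list in the table were tested, 34 were higher in spontaneous pools, 8 were called (22.9%) and 9 did not overlap between the groups, against 1.1% of all transcripts. After rescaling 1 of the 9 was still without overlap. The median log2 fold change was 0.40 on CPM and 0.24 after rescaling, with 32 of 35 higher and 4 called (11.4%). This rescaled count was 9 without small replicate 3 and 4 without spontaneous replicate 2. HSP90B1, the ER chaperone of the Hsp90 family, lay at 1750 to 2648 CPM (median 2053, n = 6) in small and 6357, 3160, 3548, 4207 and 4178 CPM in spontaneous pools (log2 fold change 0.997 ± 0.21, SE, limma adjusted p = 0.13). PDIA4, a disulfide isomerase, lay at 186 to 245 CPM (median 204, n = 6) in small and 389.9, 314, 328, 344 and 324 CPM in spontaneous pools (0.71 ± 0.15, SE, limma adjusted p = 0.13). Neither overlapped between the groups on CPM. Large pools held 2190 to 3210 CPM of HSP90B1 and 218 to 308 CPM of PDIA4.

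The other calls under both scalings were PDIA6, a second disulfide isomerase (486 to 868 against 923 to 1478 CPM, 0.70 ± 0.18, SE), and HYOU1, a chaperone of the Hsp70 family (39.8 to 73.3 against 78.6 to 126 CPM, 0.77 ± 0.20). Called on CPM alone were HSPA5, the main Hsp70 chaperone of the ER (0.67 ± 0.18, SE), its exchange factor SIL1 (1.07 ± 0.29), and the calcium-binding CALR (0.67 ± 0.20) and CALU (0.61 ± 0.16). CALR lost its call in 2 of 11 leave-outs. Of 21 members of the unfolded protein response and ER-associated degradation none was called on CPM (3 with an unadjusted limma p under 0.05) and SYVN1, a ubiquitin ligase of that degradation, was called lower after rescaling (-0.68, limma adjusted p = 0.677). On CPM 1 member was called higher without small replicate 2 or 6, and SYVN1 was called lower without small replicate 3. Of 33 genes for translocation into the ER and N-glycosylation 1 was called (3.03%, against 2.28% of all transcripts), SRD5A3, which makes the dolichol carrier (1.36 ± 0.45, SE), and none after rescaling. SRD5A3 lost its call in 4 of 11 leave-outs, and the count was 0 without spontaneous replicate 2, 4 or 5. Whether the folding list differed from these 2 lists was not tested.

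**Figure D4:**
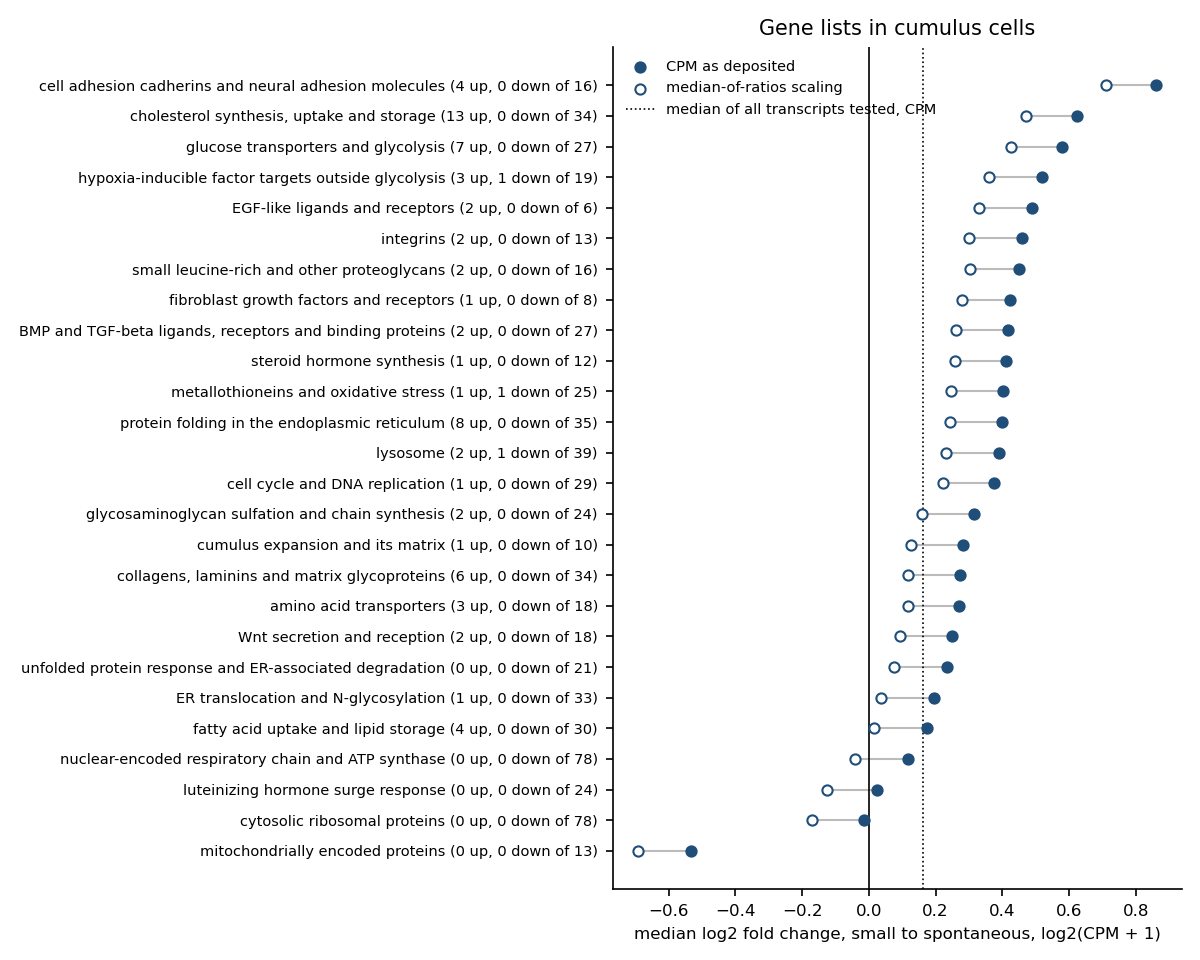
Median log2 fold change from small to spontaneous CC for each pathway list with at least 5 tested members, on CPM (filled) and after median-of-ratios scaling (open), with the number called on CPM in brackets. The dotted line is the median of all transcripts on CPM, 0.16, and mitochondrially encoded proteins, cytosolic ribosomal proteins and the response to the luteinizing hormone surge lie furthest to the left.

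Matrix and adhesion genes were examined next. Of 34 collagens, laminins and matrix glycoproteins 6 were called on CPM (17.6%), all higher in spontaneous pools, and 5 after rescaling (14.7%), with a median of 0.27 against 0.16 over all transcripts. Beside IGFBP7, the calls were MFAP2, a component of elastic microfibrils (4.71 to 9.53 against 12.7 to 23.8 CPM, 1.17 ± 0.28, SE), the secreted glycoprotein FSTL1 (0.84 ± 0.20), thrombospondin THBS1 (2.15 ± 0.58), the fibrillar collagen COL11A1 (1.49 ± 0.41) and, on CPM alone, the protease HTRA1 (0.74 ± 0.24). MFAP2 did not overlap between the groups. HTRA1, a protease counted in this list, lost its call in 6 of 11 leave-outs. THBS1 had a wide spread, from 49.7 to 807 CPM in small to 413 to 2252 CPM in spontaneous pools, and was called with neither edgeR nor DESeq2.

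Of 16 proteoglycans tested, SRGN and FMOD were called under both scalings (12.5%). PRELP, a relative of fibromodulin, did not overlap between the groups but missed the threshold (1.04 to 4.06 against 4.29 to 8.60 CPM, 1.08 ± 0.39, SE, limma adjusted p = 0.438). No small pool reached 5 CPM of it, so PRELP passed the filter only through the other pools, which favours such a gap. Of all transcripts, 1.1% were higher in spontaneous pools without overlap. Among 24 genes for glycosaminoglycan chains, PAPSS1, which makes the sulfate donor, and CHST11, a chondroitin sulfotransferase, were called on CPM (0.56 ± 0.19 and 0.75 ± 0.25, SE) and none was after rescaling. PAPSS1 lost its call in 8 of 11 leave-outs and CHST11 in 7 of 11, and the list's count ran from 0, without small replicates 3 or 5 or spontaneous replicates 1 or 5, to 4 without small replicate 6.

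Integrins, the receptors that tie cells to this matrix, had 2 calls among 13 members (15.4%). ITGA2, the collagen-binding subunit, lay at 166 to 519 CPM (median 289.6, n = 6) in small and 1040, 476, 685, 625.2 and 666 CPM in spontaneous pools, where replicate 2 lay below the highest small pool (log2 fold change 1.24 ± 0.28, SE, limma adjusted p = 0.182; 1.08 after rescaling, also called). ITGAV, a subunit that binds vitronectin and fibronectin, rose by 0.72 (SE 0.22) on CPM but was not called after rescaling, and lost its call in 4 of 11 leave-outs. The integrin count was 1 without small replicate 1 or small replicate 3 and 4 without small replicate 4. Of 16 genes listed as cadherins and neural adhesion molecules 4 were called (25.0%), 3 of them under both scalings (18.8%), and 14 were higher with a median of 0.86. The calls were NETO2 (5.75 to 21.8 against 27.4 to 45.6 CPM, 1.43 ± 0.29, SE, no overlap), the cadherin CDH11 (1.39 to 19.3 against 18.5 to 78.4 CPM, 2.10 ± 0.48), LRRN3 (1.24 ± 0.40) and, on CPM alone, NCAM2 (1.43 ± 0.48). NETO2 is an auxiliary subunit of kainate receptors rather than an adhesion molecule, yet it counts in these shares. The count of 4 was 2 without small replicate 3 or spontaneous replicate 1. LRRN3 lost its call in 6 and NCAM2 in 7 of 11 leave-outs.

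Expansion of the cumulus after the surge rests on hyaluronan and the proteins that bind it. Of 10 tested genes for cumulus expansion 1 was called on CPM, TIMP1, an inhibitor of metalloproteinases (405 to 1309 against 838 to 1867 CPM, 0.95 ± 0.28, SE), and it was not after rescaling or without spontaneous replicate 2 (0.80). The list's count was 2 without small replicate 1 or small replicate 6. VCAN, the large hyaluronan-binding proteoglycan, lay at 8357 to 17839 CPM (median 12815, n = 6) in small and 23964, 12225, 18905, 13162 and 11011 CPM in spontaneous pools, which overlapped widely (0.27 ± 0.28, SE, limma adjusted p = 0.842). HAS2, the hyaluronan synthase, lay at 19.4 to 146 CPM in small and 32.2 to 176 CPM in spontaneous pools (0.86 ± 0.46, SE, limma adjusted p = 0.63). Named for their role after their values were seen, TNFAIP6, which links hyaluronan to its heavy chains, differed by 0.25 ± 0.21 (SE, limma adjusted p = 0.794), the prostaglandin synthase PTGS2 by 0.11 ± 0.36 (SE, adjusted p = 0.953) and PTX3, which cross-links the matrix, by -0.72 ± 0.42 (SE, adjusted p = 0.679). None of these passed the limma test on CPM, which does not show the levels to be equal. With other settings PTX3 was called lower: with edgeR, with DESeq2, with the mitochondrial share as a covariate and without small replicate 3. HAS2 was called higher without small replicate 6.

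Of the signals that reach CC after the surge, the response to luteinizing hormone had 24 genes tested. None was called with limma on all 11 pools (2 with an unadjusted p under 0.05) or edgeR, and 1 was called lower with DESeq2. With limma 1 was called higher without small replicate 1, 4 or 5, and over all settings up to 2 were called lower. The median of the 24 on CPM was 0.03 against 0.16 over all transcripts, with 12 higher and 12 lower, against 71.9% higher of all. After rescaling the median was -0.12 against 0.01, with 11 higher, against 51.7% of all. Among EGF-like ligands and receptors 2 of 6 were called on CPM (33.3%, against 2.28% of all transcripts) and 1 after rescaling (16.7%, against 0.803%). EREG, epiregulin, lay at 0 to 5.83 CPM (median 1.27, n = 6) in small and 8.98, 6.05, 15.1, 286 and 2.65 CPM in spontaneous pools (log2 fold change 2.62 ± 0.84, SE, limma adjusted p = 0.39). It was also called after rescaling (2.499, limma adjusted p = 0.742) and with edgeR, but not with DESeq2. Spontaneous replicate 4 held far more than the rest, and without it the change on CPM was 1.59, 1 of 6 leave-outs in which the call was lost. AREG, amphiregulin, did not pass the filter, and the same pool held 198.2 CPM of it against at most 3.32 CPM in each of the other 10 pools. ADAM17, the protease that releases these ligands, rose on CPM (0.54 ± 0.18, SE) and was not called after rescaling or in 7 of 11 leave-outs. The count of 2 was 0 without small replicates 2, 3 or 4 or spontaneous replicates 3 or 4.

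Other growth factors of the follicle gave few calls. FGF2, basic fibroblast growth factor, lay at 27.3 to 65.8 CPM (median 35.7, n = 6) in small and 92.6, 46.2, 107, 249.9 and 38.8 CPM in spontaneous pools, where replicates 2 and 5 were inside the range of the small pools and replicate 4 was the highest (1.10 ± 0.38, SE, limma adjusted p = 0.419; exact permutation test, p = 0.0519). It was not called after rescaling (0.94, limma adjusted p = 0.742), and the call was lost in 7 of 11 leave-outs, with 0.71 without spontaneous replicate 4. FGF2 was called with edgeR and with DESeq2, but not with TMM scaling or with the mitochondrial share as a covariate. It was the only call among 8 fibroblast growth factors and receptors on CPM (12.5%, against 2.28% of all transcripts), and none was called after rescaling. Of 27 ligands, receptors and binding proteins of the BMP and TGF-beta family 2 were called under both scalings (7.41%): FSTL1, given above, and BAMBI, a decoy receptor of the family, at 0 to 7.39 CPM (median 1.05, n = 6) in small and 19.6, 3.51, 11.4, 21.2 and 7.28 CPM in spontaneous pools (2.09 ± 0.56, SE, limma adjusted p = 0.295). BAMBI was called with DESeq2 but not with edgeR. The list's count was 6 without small replicate 4. BMP2 missed the threshold (0.613 to 9.85 against 3.31 to 34.7 CPM, 1.47 ± 0.54, SE, limma adjusted p = 0.438), as did the heparin-binding factor PTN (47.5 to 412 against 140.4 to 226 CPM, 0.70 ± 0.40, adjusted p = 0.678), whose highest pool was a small one.

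Of 18 genes of Wnt secretion and reception 2 were called under both scalings (11.1%). FZD6, a Frizzled receptor, lay at 6.58 to 34.0 CPM (median 21.5, n = 6) in small and 57.0, 59.3, 42.7, 51.4 and 54.2 CPM in spontaneous pools without overlap (1.51 ± 0.33, SE, limma adjusted p = 0.162), with large pools at 11.7 to 54.9 CPM. WLS, the carrier of Wnt proteins to the cell surface, rose by 0.88 (SE 0.26), and lost its call in 3 of 11 leave-outs. The list's count was 4 without small replicate 6 and 1 without spontaneous replicate 1.

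Among 18 amino acid transporters 3 were called under both scalings (16.7%). SLC38A1, which brings glutamine and other neutral amino acids into the cell, lay at 76.7 to 159 CPM (median 117, n = 6) in small and 310.1, 207, 191, 195 and 199.5 CPM in spontaneous pools, with no overlap and 4 spontaneous pools within a narrow band below replicate 1 (0.92 ± 0.21, SE, limma adjusted p = 0.191). SLC7A6 (0.92 ± 0.29, SE) and SLC38A5 (1.41 ± 0.45), 2 further transporters, were each called but lost the call in 7 of 11 leave-outs, and SLC38A5 reached 5 CPM in no small pool. With edgeR neither of these 2 was called, and with DESeq2 only SLC38A5 was. The count was 1 without small replicate 5, spontaneous replicate 3 or spontaneous replicate 5.

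Fatty acid and steroid lists had few calls. Of 30 genes for fatty acid uptake and lipid storage 4 were called on CPM (13.3%): SLC27A2, a fatty acid transporter and acyl-CoA synthetase (37.1 to 65.0 against 60.1 to 203 CPM, 1.19 ± 0.30, SE), the elongase ELOVL6 (1.11 ± 0.29), the phospholipase PLA2G12A (0.72 ± 0.20) and the acyltransferase GPAT3 (1.45 ± 0.48). SLC27A2 and PLA2G12A were also called after rescaling, where G0S2, an inhibitor of lipolysis, was called lower (-0.67, limma adjusted p = 0.644). GPAT3 lost its call in 6 of 11 leave-outs. Of 12 genes of steroid hormone synthesis HSD17B12, a ketoreductase shared with fatty acid elongation, was the single call under both scalings (156 to 212 against 240.3 to 329.7 CPM, 0.65 ± 0.15, SE, no overlap). STAR, which brings cholesterol into mitochondria, missed the threshold (1.73 ± 0.86, SE, limma adjusted p = 0.597) and lay at 315.0 CPM in spontaneous replicate 2 against at most 12.6 CPM in the other 10 pools.

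In the lysosome list of 39 genes, M6PR, the receptor that delivers lysosomal enzymes, was called higher under both scalings (70.6 to 147 against 160.3 to 184 CPM, 0.74 ± 0.18, SE, no overlap), and the membrane protein LAMP2 on CPM alone (0.54 ± 0.16). GGA3, an adaptor for the same receptor at the Golgi, was called lower (9.63 to 23.4 against 5.07 to 11.1 CPM, -0.87 ± 0.30, SE, and -1.01 after rescaling). Higher calls were 5.13% of the list on CPM and 2.56% after rescaling, against 2.28% and 0.803% of all transcripts. The count of 2 higher was 6 without spontaneous replicate 1 and 1 without spontaneous replicate 3, and GGA3 lost its call in 8 of 11 leave-outs.

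Respiration lists had no calls with limma on CPM. All 13 mitochondrially encoded transcripts were lower in spontaneous pools and none was called with limma (3 with an unadjusted p under 0.05), with a median of -0.53 on CPM and -0.69 after rescaling. ND6 lay at 1139 to 4173 CPM in small and 1016 to 1572 CPM in spontaneous pools (-0.69 ± 0.26, SE, limma adjusted p = 0.464), and ND2 at 3201 to 13936 and 2831 to 4240 CPM (-0.73 ± 0.30, SE, adjusted p = 0.516). With other settings some members were called lower: 4 with DESeq2, 1 with edgeR (ND6), and 4 with limma without small replicate 6, ND6 and ND2 among them. Both encode subunits of complex I, and small replicate 3 was the highest pool for each. Of 78 nuclear-encoded respiratory genes none was called with limma (1 with an unadjusted p under 0.05), edgeR or DESeq2. Their median of 0.12 on CPM became -0.04 after rescaling, so its sign depended on the scaling. Likewise none of 78 cytosolic ribosomal proteins was called on CPM (1 with an unadjusted p under 0.05), and RPL35A was called lower after rescaling (-0.52, limma adjusted p = 0.742). Of 29 cell cycle genes ANAPC1 was the single call (3.45%, against 2.28% of all transcripts). On CPM 27 were higher and after rescaling 24, against 71.9% and 51.7% of all transcripts, and the count of calls was 4 without small replicate 3.

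On CPM 10 transcripts were called lower, and each was also called after rescaling. The number was 41 without small replicate 3, 4 without small replicate 1 or spontaneous replicate 4, and 6 without spontaneous replicate 2 or 3. ADM, adrenomedullin, a vasodilator peptide induced by hypoxia-inducible factor, lay at 482 to 868 CPM (median 688, n = 6) in small pools and 373, 341, 480.5, 329 and 443 CPM in spontaneous pools. The groups did not overlap, though the lowest small pool, at 481.8 CPM, and the highest spontaneous pool, at 480.5 CPM, were nearly level. The log2 fold change was -0.75 ± 0.20 (SE, limma adjusted p = 0.295; exact permutation test, p = 0.00433) and -0.91 after rescaling (limma adjusted p = 0.0827), and large pools held 374 to 1015 CPM. Of 19 targets of hypoxia-inducible factor outside glycolysis tested, ADM among them, 17 were higher under either scaling, against 71.9% of all transcripts on CPM and 51.7% after rescaling. BNIP3, a mitophagy receptor (0.89 ± 0.25, SE), P4HA1, a collagen prolyl hydroxylase (0.52 ± 0.17), and MXI1, a transcription factor (0.56 ± 0.19), were called higher on CPM (15.8%, against 2.28% of all transcripts) and none after rescaling. The count of 3 was 0 without spontaneous replicate 5 and 1 without any of small replicates 1, 4 or 5 or spontaneous replicates 3 or 4. P4HA1 lost its call in 8, MXI1 in 9 and BNIP3 in 1 of 11 leave-outs.

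CLK1, a kinase of splicing factors, lay at 94.2 to 271 CPM (median 151, n = 6) in small and 72.3, 84.9, 83.5, 78.8 and 93.9 CPM in spontaneous pools without overlap (-0.88 ± 0.24, SE, limma adjusted p = 0.301). CYB5D2, a heme-binding membrane protein, lay at 9.94 to 32.0 CPM (median 15.7, n = 6) in small and 8.36, 7.997, 7.81, 6.17 and 7.28 CPM in spontaneous pools, also without overlap (-1.04 ± 0.30, SE, limma adjusted p = 0.346). These 2 and ADM were the 3 that kept their calls in all 11 leave-outs. MT1A, a zinc-binding metallothionein, lay at 498 to 1051 CPM in small and 378 to 718 CPM in spontaneous pools (-0.65 ± 0.22, SE, called lower). In the same list of 25 the hydrogen peroxide-degrading enzyme CAT was called higher on CPM (0.51 ± 0.17, SE) but not after rescaling. The remaining lower calls were RSRP1 (-0.72 ± 0.23), the phosphatase PPM1D (-1.12 ± 0.36), the endosomal regulator ANKRD27 (-0.69 ± 0.23), the kinesin KIF5C (-1.14 ± 0.39), KIAA1671 (-0.91 ± 0.31) and GGA3 (each ± SE). These 6 and MT1A lost the call in 3 to 9 of 11 leave-outs, and CAT in 7.

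The marker lists were read beside these results. Summed CPM of the 15 cumulus and granulosa markers in the table was 3830 to 5622.9 (median 4951) in small and 5623.1 to 9996 (median 6641) in spontaneous pools, just without overlap (exact permutation test, p = 0.00433, adjusted p = 0.0346 over 8 measures). No single member of the 14 tested was called with limma on CPM (5 with an unadjusted p under 0.05). With pools left out, 2 were called higher without small replicate 4 or spontaneous replicate 2. Without small replicate 1, 2 or 6 or spontaneous replicate 1, 1 was called higher. With the mitochondrial share as a covariate 2 were called higher and 1 lower. INHA, the inhibin alpha subunit, held 999 to 2397 CPM in small and 1823 to 4855 CPM in spontaneous pools (0.73 ± 0.27, SE, limma adjusted p = 0.455), and SERPINE2, a protease inhibitor, 1015 to 2006 and 1344 to 2671 CPM (0.61 ± 0.22, SE, adjusted p = 0.438). After rescaling the sums overlapped, at 3539 to 6154 and 5383 to 9226 (exact permutation test, p = 0.0519). FOXL2, a granulosa transcription factor, was at most 1.05 CPM in each pool. The part of this difference in the calls above was not tested.

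Theca and stroma markers summed to 607.3 to 1788 CPM in small and 1279 to 4368 CPM in spontaneous pools (exact permutation test, p = 0.195), the highest being spontaneous replicate 2. That pool held 2117 CPM of COL1A2 and 217.9 CPM of COL3A1, collagens of connective tissue, against at most 40.8 and 12.1 CPM in the other 10. It also held 19.3 CPM of the pericyte receptor PDGFRB against at most 1.21 CPM. PDGFRA was the single call among 10 tested stroma markers (1.24 ± 0.42, SE) and was lost after rescaling and in 9 of 11 leave-outs. CYP17A1, which defines theca cells, was at most 0.661 CPM in each pool. Without spontaneous replicate 2, 185 transcripts were called, 179 of them higher, and GIMAP8, SRGN and FMOD kept their nominal calls. Without small replicate 3, 270 were called, 229 higher, with a median shift of 0.08. Endothelial markers summed to 14.6 to 71.4 CPM in small and 27.4 to 61.2 CPM in spontaneous pools, red blood cell markers to at most 4.18 CPM and oocyte markers to at most 13.7 CPM in a pool, with exact permutation p of 0.965, 0.468 and 0.810 between the groups. Their part in the results was not tested.

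In oocyte pools of the same classifications, which the authors tabulated separately, these transcripts were also found. GIMAP8 was at 0.172 to 9.08 CPM in small and 2.92 to 15.8 CPM in spontaneous oocyte pools (n = 6 and 4), and FMOD at 0 to 4.70 and 0 to 21.4 CPM. SRGN lay at 4.59 to 303.0 CPM in small and 57.0 to 703.9 CPM in spontaneous oocyte pools. These ranges overlapped between the classifications, and no test was made across the tables.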

How the data were processed

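RNA of 17 CC pools was reverse transcribed and amplified (Ovation RNA-Seq System version 2) and sequenced. The authors trimmed reads with fqtrim, aligned them with Hisat2 to UMD3.1 and assigned them to genes with FeatureCounts (versions not given in the sources used here), and their processing notes also name edgeR and DESeq2. They deposited CPM per gene and pool, each column summing to 1000000, which were used as the main unit. Columns matched samples by name, with 0 left unmatched. Of 16244 genes, 9712 were tested on log2(CPM + 1) with limma 3.58.1 (R 4.3.3; lmFit, eBayes with trend), 415 of them without a symbol and 641 with a symbol taken from the oocyte table by gene identifier. Median-of-ratios scaling divided each pool by its median ratio to the geometric mean over pools. Deposited CPM values came out as whole reads in every pool to within 0.01 of a read, so edgeR 4.0.16 (quasi-likelihood) and DESeq2 1.42.0 served as alternatives on those reads and called 128 and 217 transcripts. The tests were checked on simulated data. Exact permutation tests, two-sided, compared mean values of single transcripts and marker sums between the 6 and 5 pools (scipy 1.17.1, numpy 2.4.6, pandas 2.3.3, Python 3.11.15; figures with matplotlib 3.10.9). Amplification makes reads no count of molecules, and CPM are not corrected for transcript length, so levels were not compared between genes. No 2 small pools and no 2 spontaneous pools agreed within sampling noise (smallest chi-square per degree of freedom 17.6 over these pairs).

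The members, the 27 pathway and 6 cell type lists and the tests were chosen with earlier results of these data known. Named were transcripts past the adjusted threshold, the 16 higher and 10 lower with a symbol, the smallest p and a call under both scalings, up to 3 members of each list with the smallest p, and FGF2, HK2, PTN, VCAN, BMP2, HSP90B1, PDIA4, PDIA6, ITGA2, ITGAV, ADM, ND2 and ND6. Other called list members, C1QA, CD53, CSF1R, LAPTM5, TNFAIP6, PTGS2, PTX3, PTPRC, AREG, PDGFRB, COL1A2, COL3A1, FOXL2 and CYP17A1 were added after their values were seen. Replicate numbers did not pair pools: same-numbered pools deviated from their group means with correlations across transcripts of -0.03, 0.16, -0.19, -0.10 and -0.002. The alternatives were another pseudocount, filter, scaling, count tool or covariate, all 3 classifications in one fit, thinned reads, and pools left out. Results of 3 transcripts are not reported here.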

Additional observations from a re-analysis of the deposited data

Results flagged for a closer look

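Among 86 groups of pools examined, 5 held a pool far from the others by Dixon's ratio of gap to range at its 95% critical value, and chance alone gives about 1 in 20 such groups. GIMAP8 lay at 1.52 CPM in small replicate 4, below the other small pools (ratio 0.636), and at 47.2 CPM in spontaneous replicate 1, above the other spontaneous pools (ratio 0.724). Both pools lay on the outer side of their group, away from the other group. SLC38A1 stood at 310.1 CPM in spontaneous replicate 1 (ratio 0.831). ADGRV1 stood at 86.0 CPM in spontaneous replicate 2, the lowest of its group and nearest to the small pools (ratio 0.774). The theca and stroma marker sum was 4368 CPM in the same pool (ratio 0.759). All 3 transcripts kept their nominal calls with either of these spontaneous pools left out. The 5 are not all the distant pools of named transcripts. EREG at 286 CPM in spontaneous replicate 4 and STAR at 315.0 CPM in spontaneous replicate 2, against at most 15.1 and 12.6 CPM in the other 10 pools, are not among them.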

How the results depend on the processing

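On CPM, 231 transcripts were called, 95.7% of them higher in spontaneous pools, with 3 past the adjusted threshold and a median of 0.16. The balance of higher and lower calls depended on the scaling. In the same order (calls, percent higher, adjusted), median-of-ratios scaling gave 126, 61.9% and 1, TMM scaling 124, 62.9% and 1, CPM without mitochondrially encoded genes 120, 55.8% and 1, edgeR 128, 57.0% and 1, edgeR and DESeq2 jointly 122, 55.7% and 1, DESeq2 217, 49.8% and 17, and the mitochondrial share as a covariate 386, 68.9% and 32. The median was -0.0195 with edgeR and -0.0254 with DESeq2. All 3 classifications in one fit and a mean of at least 1 CPM each gave 5 adjusted calls. With 1 pool left out, calls ran from 144 (without spontaneous replicate 5) to 313 (without small replicate 6), adjusted calls from 1 to 12 (without small replicate 3), the percent higher from 84.8% (without small replicate 3) to 98.0% and the median from 0.08 to 0.20, while the difference in mitochondrial share ran from -5.20 (without small replicate 3) to -11.5 percentage points (without small replicate 6, exact permutation p = 0.0238).

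Alternatives chosen after seeing the data gave, without small replicate 3 and spontaneous replicate 2 together, 234 calls, 87.6% higher and 8 adjusted. Median-of-ratios scaling, 126 calls on all pools, gave 225, 67.1% higher and 1 adjusted without small replicate 3, and 111, 67.6% and 0 adjusted without spontaneous replicate 2 (537 at an unadjusted limma p under 0.05). KDR, an endothelial receptor that was not called (0.32), turned to -0.0778 with the mitochondrial covariate and -0.0286 without those 2 pools, and ran from 0.09 to 0.47 with 1 pool left out. The replicate block gave 260 calls, 249 higher and 11 lower, with 2 adjusted, and drops small replicate 6, which has no partner; the numbers do not pair the pools. The causes of these shifts were not tested. Depth limits transcripts near the floor, where small pools with fewer reads are the less precise.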

Other observations

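Of the 231 called transcripts, 189 (81.8%) were also at 5 CPM or more in at least 4 oocyte pools, close to the 83.2% of all 9712 tested. A pathway list held 68 of the 221 higher and 3 of the 10 lower, so most calls fell outside the functions examined. Log2 fold changes of the higher calls ran from 0.50 to 2.62, with a median of 0.90. HK2 lay at 0.327 to 31.9 CPM in small and 7.74 to 38.6 CPM in spontaneous oocyte pools, and ADM at 39.5 to 119 and 29.7 to 97.3 CPM. SFRP2, a secreted Wnt modulator, was at 105 CPM in spontaneous CC replicate 2 against at most 1.82 CPM in the other 10 pools, and BMP4 at 8.97 against at most 3.21 CPM, both named after their values were seen.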
